A study of Mus musculus with 6 samples.

Results

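Gene end peaks were open chromatin regions that the authors' annotation placed in the 3' untranslated region (3' UTR) of a gene or just downstream of it, in mouse embryonic stem cells with and without Lmna. All peaks of these classes were taken from the authors' deposited table except those on chromosome 14 from about 75.1 Mb onwards, a stretch called distal chromosome 14 here, where all listed gene end peaks had positive folds. That left 1991 gene end peaks of 65535 listed peaks, or of 60705 listed outside that stretch. Of these, 1329 were 3' UTR peaks and 662 were downstream peaks, of which 260 lay within 1 kb of the annotated end, 197 at 1 to 2 kb and 205 at 2 to 3 kb. Apart from leaving out that stretch, no fold or p-value entered the choice.

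The assay was ATAC-seq, which reads open chromatin from where Tn5 transposase inserts sequencing adapters, and 3 libraries of Lmna knockout cells were set against 3 of control cells, which the labels give as WT. Both groups were E14 embryonic stem cells carrying the transgene Tg(Nkx2-5-EmGFP), a green fluorescent reporter named for the heart transcription factor Nkx2-5. Both were kept undifferentiated with leukemia inhibitory factor on growth-arrested mouse embryonic fibroblast feeders, which were reduced by preplating before collection. How the knockout was made, and whether a group's libraries are separate clones or cultures, is not in the labels, so the p-values measure spread between libraries that may be technical.

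The 3' UTR is the stretch of a messenger RNA after its stop codon, and the sequence around the gene's end carries the signals at which the transcript is cut and polyadenylated. RNA polymerase II runs on past that point before it leaves the DNA, and nucleosomes tend to be displaced over the cleavage site. Enhancers, insulator sites and the promoters of neighbouring or antisense genes can also lie at gene ends, so an open region there need not belong to the gene that ends. Lmna encodes lamins A and C, filament proteins beneath the nuclear envelope that bind chromatin.

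The RefSeq sequences that could be laid over the peaks were those around transcription starts. They are shown because they mark gene end peaks at or near a transcript start. Start windows of 18 transcripts overlapped 16 gene end peaks. Of these 16 peaks, 2 changed by the rule given below, and both were 3' UTR peaks that gained accessibility. That count is near the share changed at all gene ends, 13.1%, and in all listed peaks outside distal chromosome 14, 14.2%. The peak chr3:53452415-53453055 (mm10), at the end of Nhlrc3, holds the start of the predicted gene Gm16206. The peak chr11:55136554-55137930, assigned to the amino acid transporter gene Slc36a3, holds the start of the antisense gene Slc36a3os. By the RefSeq placement used below, the gene end of this peak is that of Slc36a3os itself, with the peak centre 2952 bases before it. Both starts are printed 5' to 3' from RefSeq, assembly GRCm38.p6, plus strand, with the first transcribed base in capitals, and the line after them is a GC box in the second peak with its match in capitals.
Gm16206 start, chr3:53452604-53452633: gaggttcagctgggcCacaatcaagtactt
Slc36a3os start, chr11:55136984-55137013: aacagtccctctgttAcaaggcacactgtt
Slc36a3os GC box, chr11:55136940-55136969: tgggtgaagcGGGGCGGGGctgagcattga

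A log2 concentration is the authors' group mean of normalised reads in the peak on the log2 scale, so each unit is a doubling, and the FDR is their p-value adjusted as a false discovery rate. In the authors' deposited table the Gm16206 start peak had a log2 concentration of 5.23 in knockout cells and 3.77 in control cells (log2 fold 1.46, FDR 0.00169). The Slc36a3os start peak had 4.94 in knockout cells and 3.48 in control cells in the authors' deposited table (log2 fold 1.46, FDR 0.0059). Both peaks were open in control cells and more open in knockout cells. Among 6 motifs searched on both strands in RefSeq windows of 300 bases, the GC box GGGGCGGGG was in 2 of the 18 windows at gene end peaks and in 11.4% of all 32851 promoter windows. The CTCF core AGGNGGC was in 5 of the 18 and in 29.4% of all windows. The Esrrb motif TCAAGGTCA (0.423%), the octamer ATGCAAAT (1.74%), the AP-1 motif TGANTCA (7.81%) and the KLF motif GGGTGTGGC (1.35%) were in 0 of the 18. None of 1005 RefSeq microRNA hairpins overlapped a gene end peak.

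The knockout label was checked at Lmna, which had no gene end peak. The listed peak assigned to Lmna with the smallest p-value had a log2 concentration of 2.00 in knockout cells and 6.27 in control cells in the authors' deposited table (log2 fold -4.27, FDR 4.44e-20). It was picked by that p-value, and any other Lmna peaks were not used in this check. The cells' identity was checked at the strongest promoter peaks of pluripotency genes, where the log2 concentrations in the authors' deposited table were 7.05 in knockout and 6.83 in control cells for Sox2, and 5.82 in knockout and 5.42 in control cells for Nanog, neither called (FDR 0.431 and 0.336). The promoters of Pou5f1, with 5.60 in knockout and 4.63 in control cells (log2 fold 0.98, FDR 0.0294), and Zfp42, with 6.87 in knockout and 6.10 in control cells (log2 fold 0.76, FDR 0.00383), were gained in the authors' deposited table. Of 20 genes fixed as fibroblast feeder markers, none had a gene end peak, and their 48 listed peaks elsewhere held 2 gained and 2 lost peaks with a median log2 fold of 0.22. Of all listed peaks outside distal chromosome 14, 11.8% were gained and 2.43% lost, with a median log2 fold of 0.45. The feeder markers thus had a lower median than all listed peaks, on few called peaks. Their part in the gene end changes was not tested. The depth per library is unknown, and the values below are group means without a spread.

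With the deposited folds, gene end peaks were called gained more often than lost in the knockout cells. This order turned with the other zeros of the folds described below. A peak was called gained or lost where the authors' FDR was 0.05 or less. By that rule 215 gene end peaks gained accessibility (10.8%), 46 lost it (2.31%) and 1730 were not called. At a stricter FDR of 0.01, 98 were gained and 10 lost, beside 5.38% gained and 0.593% lost (5.97% in all) of all listed peaks outside distal chromosome 14. At 0.05, in the 60705 listed peaks outside distal chromosome 14, 11.8% were gained and 2.43% lost, 14.2% in all, against 13.1% at gene ends, so the overall rate at gene ends was near the background. Gains made up 82.4% of changed gene end peaks (exact 95% interval 77.2 to 86.8) and 82.9% of all changed peaks outside distal chromosome 14. Intervals over peaks cover counting error only, since all peaks come from the same 6 libraries.

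Within gene ends the balance of gains and losses differed between the transcribed part and the flank. In 3' UTRs, 150 peaks were gained (11.3%) and 21 were lost (1.58%), so 87.7% of the 171 changed peaks were gains (exact 95% interval 81.8 to 92.2). Downstream of genes, 65 were gained (9.82%) and 25 were lost (3.78%), so 72.2% of the 90 changed peaks were gains (61.8 to 81.1). The gained share was thus 15.5 percentage points higher in 3' UTR than in downstream peaks (Newcombe 95% interval 5.48 to 26.3). No test of this difference was run, because peaks are not independent replicates. Among the other classes of the table, gains made up 90.3% of changed promoter peaks, 85.7% of changed 5' UTR peaks, 83.4% of changed exon peaks, 83.2% of changed intron peaks and 77.4% of changed distal intergenic peaks. The 3' UTR share thus lay between those of promoters and 5' UTRs, and the downstream share lay below all of them. These ranks are loose. The 5' UTR share rested on 28 changed peaks (exact 95% interval 67.3 to 96), an interval that contains the 3' UTR share. The downstream interval contains the distal intergenic share, and 3.18% of distal intergenic peaks were lost, beside 3.78% downstream.

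Gains outnumbered losses in each part of the downstream window. They numbered 24 and 9 within 1 kb, 21 and 6 at 1 to 2 kb, and 20 and 10 at 2 to 3 kb, so gains made up 72.7%, 77.8% and 66.7% of changed peaks. All 3 shares were below that of 3' UTR peaks. Among all listed peaks, called or not, the log2 fold was positive in 67.3% of 3' UTR peaks (median 0.47) and in 58.9% of downstream peaks (median 0.42), against 66.7% (median 0.45) of all listed peaks outside distal chromosome 14.

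The gains were of like size in both classes. The median log2 fold of gained peaks was 1.29 in 3' UTRs (range 0.42 to 3.03) and 1.24 downstream (0.59 to 3.25), beside 1.19 for all gained peaks outside distal chromosome 14. Median log2 concentrations of gained 3' UTR peaks were 5.22 in knockout cells and 3.85 in control cells, and those of gained downstream peaks were 5.37 in knockout cells and 4.0 in control cells. Most gained peaks were thus already open in control cells. Losses had a median log2 fold of -1.80 in 3' UTRs and -1.60 downstream, beside -1.91 for all lost peaks. Lost 3' UTR peaks had medians of 2.60 in knockout cells and 4.40 in control cells, and lost downstream peaks 2.91 in knockout cells and 4.49 in control cells. The control level was under a log2 concentration of 1 in 4 of the 150 gained 3' UTR and 5 of the 65 gained downstream peaks. The knockout level was under 1 in 2 of the 21 lost 3' UTR and 4 of the 25 lost downstream peaks.

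**Figure D1:**
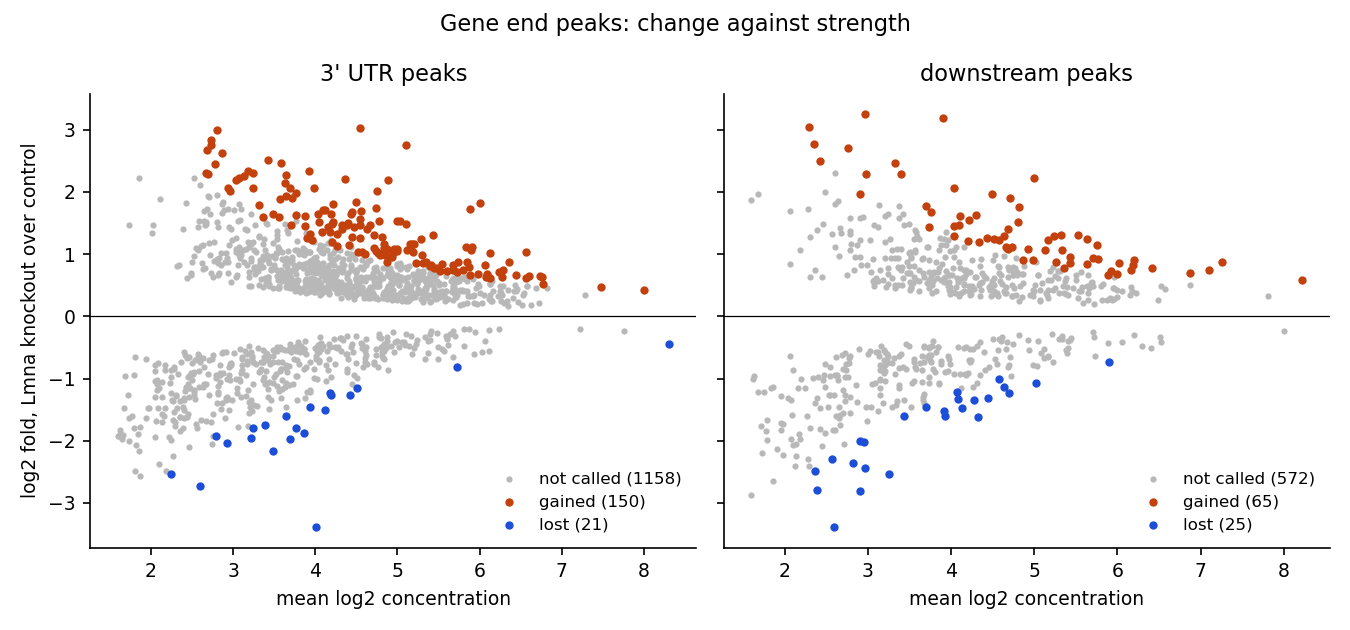
Each point is a gene end peak, placed by its mean log2 concentration (x) and its log2 fold in Lmna knockout over control cells (y), with 3' UTR peaks on the left and downstream peaks on the right and colours for gained, lost and not called peaks. Gains (150 in 3' UTRs, 65 downstream) run across the whole range of strength, while the 21 and 25 losses lie mostly among weaker peaks.

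The direction of change followed peak strength in both classes. Of 3' UTR peaks with a mean log2 concentration under 3, 31.6% had a positive fold (n = 237, 10 gained, 4 lost), whereas of those at 6 or more 88.2% did (n = 68, 20 gained, 1 lost). Downstream, 30.3% of peaks under 3 were positive (n = 142, 7 gained, 9 lost) and 73.1% of those at 6 or more (n = 26, 9 gained, 0 lost). The same order was present in all listed peaks, where the positive share was 33.6% under 3 and 95.3% at 6 or more. Between 4 and 5, where 56 of 412 3' UTR peaks (13.6%) and 24 of 174 downstream peaks (13.8%) were gained, the gain rates of the classes were close. The lost share in that bin was 1.46% of 3' UTR peaks (6 peaks) and 5.17% of downstream peaks (9 peaks). Under 3 it was 1.69% of 3' UTR and 6.34% of downstream peaks, and at 5 to 6 it was 0.426% and 1.9%. At 3 to 4 the lost shares were 2.39% of 3' UTR peaks (9 of 377) and 2.33% of downstream peaks (5 of 215), but the gained shares were 7.43% (28 peaks) and 2.79% (6 peaks). At 5 to 6 the gained shares were 15.3% and 18.1%. The gained share was thus higher downstream in 4 of the 5 bins and lower at 3 to 4, and the lost share was higher downstream in 3 of the 5, on few peaks each. In all listed peaks outside distal chromosome 14, 3.11% were gained and 3.83% lost under 3, and 7.77% and 2.81% at 3 to 4. Their shares were 13.4% gained and 2.44% lost at 4 to 5, and 18.9% and 1.28% at 5 to 6. At 6 or more they were 25.1% and 0.392%. Downstream peaks were somewhat weaker, with a median log2 concentration of 3.88 against 4.09 in 3' UTR peaks, and its part in the difference of gained share was not tested further.

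**Figure D2:**
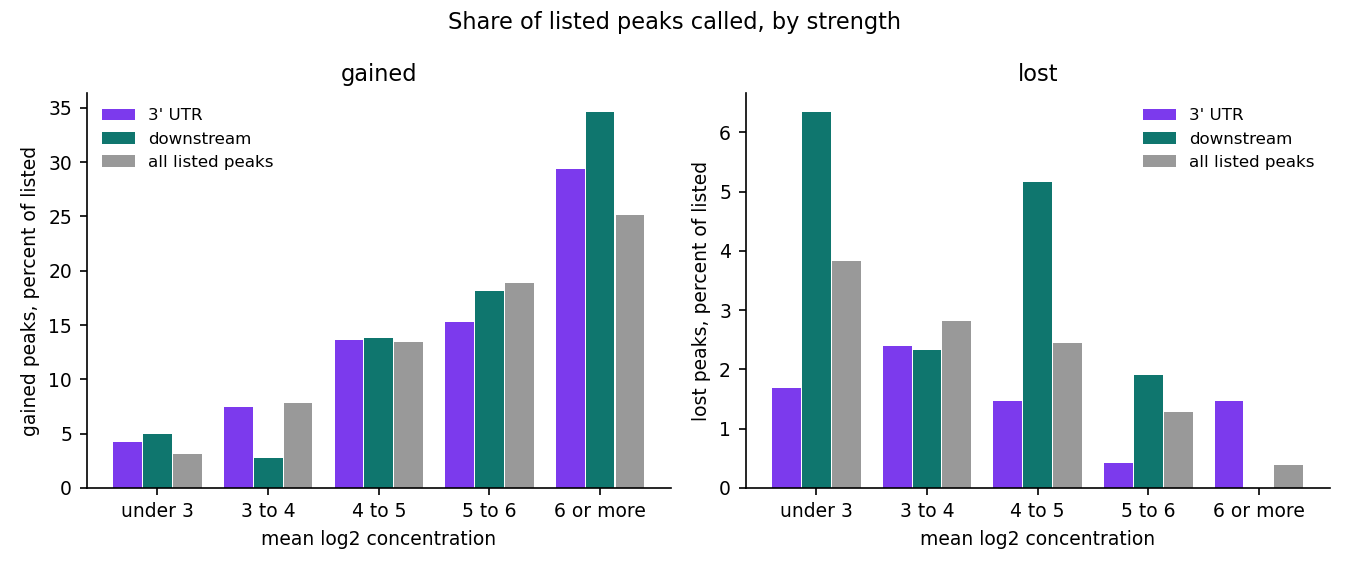
Bars give the percentage of listed peaks that were gained (left) and lost (right) in 5 bins of mean log2 concentration, for 3' UTR, downstream and all listed peaks outside distal chromosome 14. The gained share is 29.4% of 3' UTR and 34.6% of downstream peaks at 6 or more, against 4.22% and 4.93% under 3, with a dip to 2.79% of downstream peaks at 3 to 4, and the lost share of downstream peaks under 3 is 6.34%.

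The number of gains depends on where the zero of the folds is set, and this limit applies to every direction given here. The median log2 fold of all listed peaks was 0.49, and that of strong peaks (mean log2 concentration of 5 or more) outside distal chromosome 14 was 0.43. Both medians come from listed peaks only, so the tested peaks with the largest p-values, which are not listed, do not enter them. The median of all tested peaks could therefore not be computed. Retested around the zero of strong peaks, 29 3' UTR peaks were gained and 99 lost, and 12 downstream peaks were gained and 83 lost, beside 2.4% gained and 7.73% lost of all listed peaks outside distal chromosome 14. Around the median of all listed peaks the counts were 25 gained and 132 lost in 3' UTRs and 10 gained and 109 lost downstream. With these zeros the majority direction thus flipped in both classes, as it did in all listed peaks (2.04% gained and 9.63% lost around the median of all listed peaks). The flip rests on zeros taken from a list cut by p-value. Whether it holds with a zero from all tested peaks was not tested. Both zeros are above 0, so subtracting them can only weaken gains and strengthen losses, and the 46 deposited losses necessarily stayed lost. Of the 215 deposited gains, 35 stayed gained with both. The 41 gains kept with the zero of strong peaks had a median deposited log2 fold of 2.01, against 1.1 for the others. The gained share was 22.7% in 3' UTRs and 12.6% downstream with the zero of strong peaks, a difference of 10 points whose interval, -0.342 to 19.6, spans 0.

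**Figure D3:**
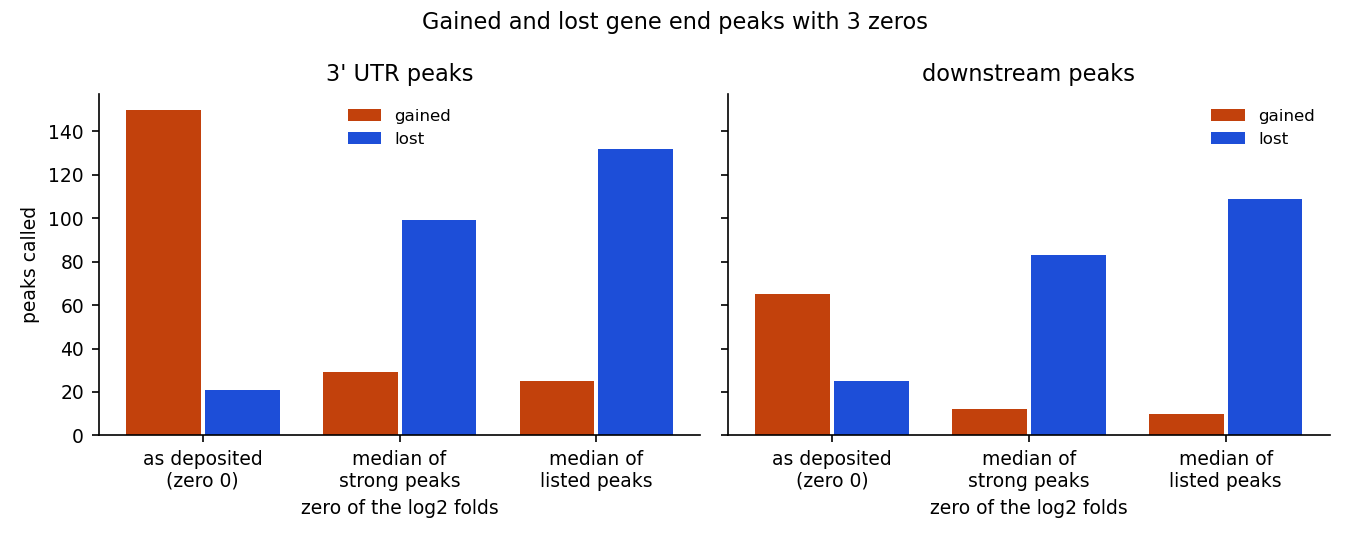
Bars count gained and lost 3' UTR peaks (left) and downstream peaks (right) with the deposited folds and after retesting around the median of strong peaks and around the median of all listed peaks. Of the zeros shown, gains outnumber losses only with the deposited one (150 against 21, and 65 against 25). The other zeros are medians of listed peaks only.

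The 3' UTR gains with the smallest FDR were chosen among peaks no weaker than the median. The one with the smallest FDR lay at chr18:42234469-42235442 in Lars, which encodes the cytosolic leucyl-tRNA synthetase, with log2 concentrations of 5.90 in knockout cells and 3.14 in control cells in the authors' deposited table (log2 fold 2.76, FDR 6.97e-12). Next was chr6:125591777-125592613 in Vwf, the gene of von Willebrand factor, a clotting protein of endothelium, with 6.50 in knockout cells and 4.76 in control cells in the authors' deposited table (log2 fold 1.73, FDR 5.24e-10). Neither peak lies at the RefSeq end of its gene: the Lars peak was 32658 and the Vwf peak 94484 bases before it, and the table does not name the transcript behind their 3' UTR class. At the end of Sft2d2, chr1:165171720-165175035, which the table assigns to Tbx19, the authors' deposited table gave 5.39 in knockout cells and 2.36 in control cells (log2 fold 3.03, FDR 2.13e-08). This was the largest fold among 3' UTR gains.

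The other leading 3' UTR gains lay at genes of varied function. At the end of Myh11, the smooth muscle myosin heavy chain gene, which faces the assigned gene Nde1, the authors' deposited table gave 5.60 in knockout cells and 3.40 in control cells (chr16:14194471-14195802, log2 fold 2.19, FDR 4.38e-07). At Bub1b, encoding the spindle checkpoint kinase BubR1, it was 5.43 in knockout cells and 3.42 in control cells in the authors' deposited table (chr2:118641060-118641627, log2 fold 2.01, FDR 4.98e-06). Bcl7a, which encodes a subunit of the BAF chromatin remodeller, had 5.08 in knockout cells and 2.88 in control cells in the authors' deposited table (log2 fold 2.20, FDR 2.46e-05), at a peak 17883 bases before the RefSeq end. All 3 were over 4 times more accessible in knockout cells by the deposited folds. Wipi2, an autophagy gene, had 6.98 in knockout cells and 5.95 in control cells in the authors' deposited table (log2 fold 1.04, FDR 4.82e-05), and Prss48, a serine protease gene, had 5.60 in knockout cells and 4.07 in control cells (log2 fold 1.54, FDR 8.38e-05). With the zero of strong peaks all 8 stayed gained, and with the median of all listed peaks all but Wipi2 did.

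**Figure D4:**
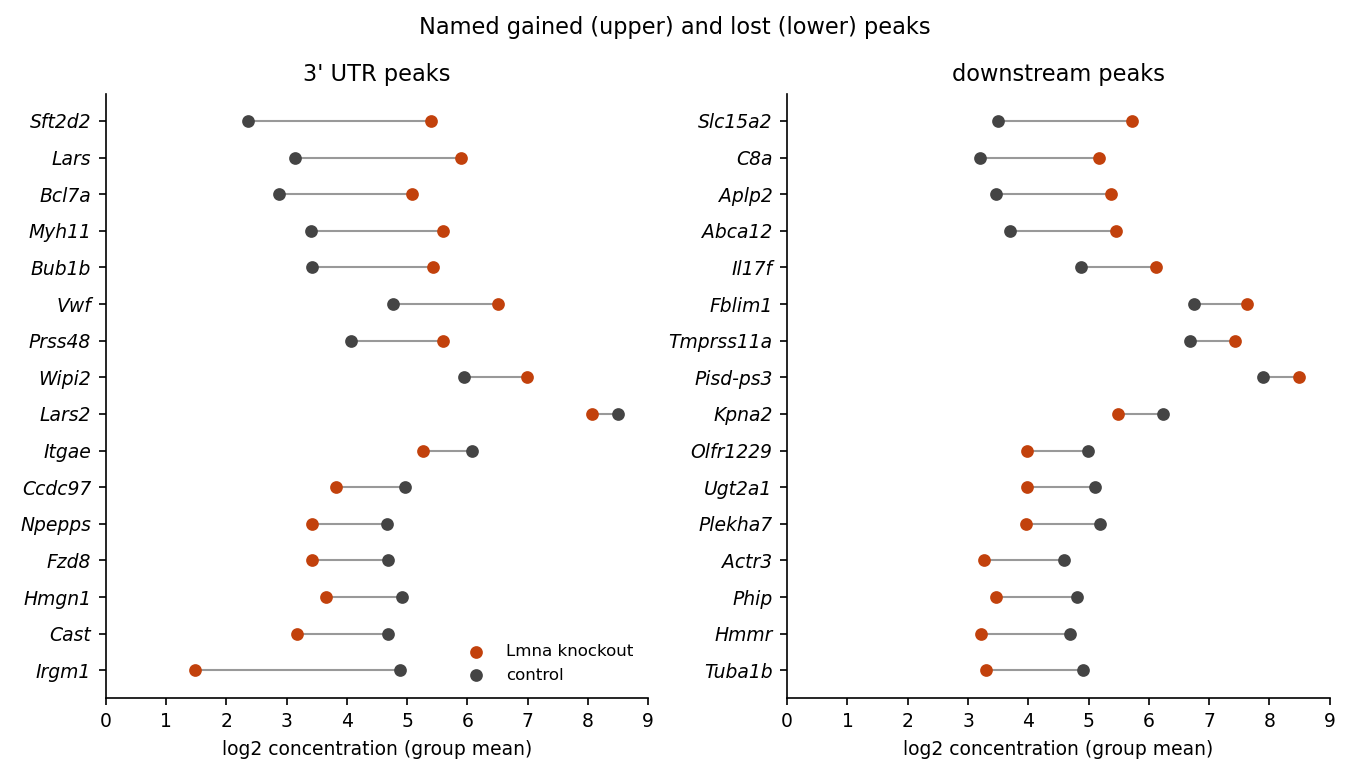
Points give the authors' log2 concentration in Lmna knockout (orange) and control (grey) cells for the 8 gained and 8 lost peaks with the smallest FDR per class, 3' UTR on the left and downstream on the right, ordered by fold. Sft2d2 (5.39 in knockout, 2.36 in control) and Irgm1 (1.48 in knockout, 4.88 in control) have the widest gaps.

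The 21 losses in 3' UTRs were led by Irgm1, an interferon-inducible GTPase gene of innate immunity. Its end peak, chr11:48864457-48865379, had a log2 concentration of 1.48 in knockout cells and 4.88 in control cells in the authors' deposited table (log2 fold -3.39, FDR 5.14e-07), the largest loss at any gene end. The promoter peak of Irgm1 was not called in the authors' deposited table (log2 fold -0.42, FDR 0.212). The strongest of all gene end peaks, chr9:123461804-123462192 in the 3' UTR of the mitochondrial leucyl-tRNA synthetase gene Lars2, had 8.06 in knockout cells and 8.50 in control cells in the authors' deposited table (log2 fold -0.44, FDR 0.00402). It was the smallest loss. The other named losses in the authors' deposited table were at Cast, the gene of the calpain inhibitor calpastatin (-1.50), the integrin gene Itgae (-0.82), the Wnt receptor gene Fzd8 (-1.26), Ccdc97 (-1.15), the nucleosome-binding protein gene Hmgn1 (-1.27) and the aminopeptidase gene Npepps (-1.24), with FDRs between 0.0102 and 0.0418. Lost peaks weaker than the median were left out of these, among them Tnpo3 (-1.88, FDR 0.00337), Cdc26 (-2.17, FDR 0.00726) and Ccdc190 (-1.97, FDR 0.00998) in the authors' deposited table.

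Among downstream gains no weaker than the median, the smallest FDR was at Slc15a2, a peptide transporter gene. Its peak chr16:36746897-36747727 had 5.72 in knockout cells and 3.50 in control cells in the authors' deposited table (log2 fold 2.22, FDR 1.09e-07). Past the end of Abca12, a lipid transporter gene of skin, the authors' deposited table gave 5.45 in knockout cells and 3.69 in control cells (log2 fold 1.76, FDR 4.43e-05). Past Aplp2, a relative of the amyloid precursor gene, it gave 5.37 in knockout cells and 3.47 in control cells in the authors' deposited table (log2 fold 1.90, FDR 5.88e-05). These 3 and the peak past the complement gene C8a (log2 fold 1.97, FDR 0.000308 in the authors' deposited table) stayed gained with both other zeros. The peak past Il17f, a cytokine gene, had a log2 fold of 1.25 (FDR 0.000174) in the authors' deposited table and stayed gained only with the zero of strong peaks. Those past the protease gene Tmprss11a (0.75), the cytoskeletal adaptor gene Fblim1 (0.88) and the pseudogene Pisd-ps3 on an unplaced contig (0.59), gained in the authors' deposited table, stayed gained with neither. A gained peak past Sdr16c6 had a smaller FDR than Abca12 (log2 fold 3.19, FDR 9.01e-06 in the authors' deposited table). It was weaker than the median and so fell outside the rule, and it stayed gained with both other zeros.

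Among lost downstream peaks no weaker than the median, those named here had the smallest FDR. Weaker lost peaks with a smaller FDR than any of these, past Timmdc1 (log2 fold -2.54, FDR 0.00254 in the authors' deposited table) and Phactr2 (-3.38, FDR 0.00465), fell outside that limit. The peak past Tuba1b, an alpha tubulin gene, chr15:98930526-98931319, had 3.29 in knockout cells and 4.91 in control cells in the authors' deposited table (log2 fold -1.62, FDR 0.00569). Past Hmmr, encoding a protein of the mitotic spindle, the authors' deposited table gave 3.22 in knockout cells and 4.69 in control cells (log2 fold -1.47, FDR 0.0133). Past Actr3, a subunit gene of the actin-nucleating Arp2/3 complex, it gave 3.27 in knockout cells and 4.59 in control cells in the authors' deposited table (log2 fold -1.33, FDR 0.0323). Kpna2, an importin alpha gene, had the strongest of the named lost peaks, with 5.49 in knockout cells and 6.23 in control cells in the authors' deposited table (log2 fold -0.74, FDR 0.0292). The remaining named losses in that authors' deposited table were past the cell junction gene Plekha7 (-1.23), the glucuronosyltransferase gene Ugt2a1 (-1.13), Phip (-1.35) and the olfactory receptor gene Olfr1229 (-1.01).

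The strongest gene end peaks had small folds. In 3' UTRs these were, after Lars2, the peaks of Dennd5b (8.19 in knockout and 7.77 in control cells in the authors' deposited table, log2 fold 0.42, FDR 0.00906), the ribosomal protein gene Rps15a (7.64 in knockout, 7.87 in control, FDR 0.415), Pigl (7.69 in knockout, 7.21 in control, FDR 0.0152) and Cep68 (7.44 in knockout, 7.10 in control, FDR 0.118). Downstream, after Pisd-ps3, they were Snx5 (7.88 in knockout and 8.12 in control cells in the authors' deposited table, FDR 0.267) and the pluripotency gene Zfp42, also called Rex1 (7.97 in knockout, 7.64 in control, FDR 0.0787), followed by Fblim1 and Tmprss11a. Once the folds were centred on strong peaks, the log2 folds of Dennd5b and Pigl were -0.01 and 0.04 and neither was called, while Rps15a (log2 fold -0.66, FDR 0.00778) and Snx5 (-0.67, FDR 0.000293) were called lost.

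Peaks were laid over RefSeq genes with a rule that differed by class. The side of the end on which placed peaks fell was thus largely set by that rule and is no check of the classes. Of 3' UTR peaks, 1013 (76.2%) overlapped a gene with their centre within 10 kb of its end, at a median of 1222 bases before it, and 222 of these covered the end itself. Another 204 lay farther inside a gene, as at Lars and Vwf, and 112 overlapped none. Of downstream peaks, 604 (91.2%) had their near edge within 3 kb past an end, with their centres at a median of 1669 bases past it and 57 centres at 3000 bases or more. The end was that of another gene than the assigned one in 376 of the 1013 3' UTR peaks and 185 of the 604 downstream peaks, because the table assigns the gene with the nearest start. For the 112 gained 3' UTR peaks at an end this held for 54. The next gene converged on the end in 55.7% of the placed 3' UTR peaks and 50.2% of the downstream ones.

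**Figure D5:**
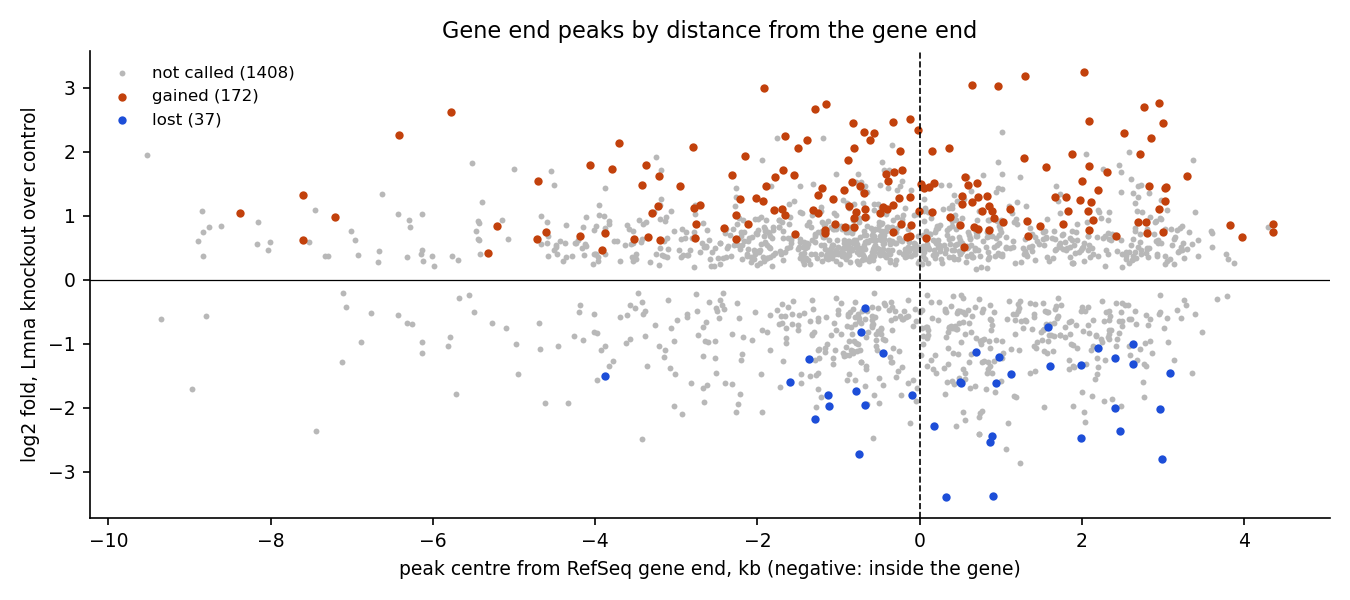
Each point is a gene end peak placed by the distance of its centre from the RefSeq end of the gene (x, kb, negative inside the gene) and its log2 fold in Lmna knockout over control cells (y). Gained peaks lie on both sides of the end, and 14 lost 3' UTR and 23 lost downstream peaks are among those placed.

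Gains were present on both sides of the end. For comparison, 11.8% of all listed peaks outside distal chromosome 14 were gained and 2.43% lost. From 500 bases before the end up to the end, 20 of 149 3' UTR peaks were gained and 2 lost (median log2 fold 0.52), and in the 500 bases past it, 2 of 61 downstream peaks were gained and 2 lost (median 0.35). A further 106 3' UTR peaks had their centre up to 2500 bases past the end, with 13 gained and 1 lost (median 0.44). The bins thus differ in class as well as in position. From 500 to 1000 bases past the end, 13 of 126 downstream peaks were gained and 7 lost, and from 2500 to 3000 bases, 12 of 87 were gained and 4 lost. Between 2000 and 2500 bases, 10 of 97 were gained and 4 lost. There 49.5% of the folds were positive, a near even split, and the median log2 fold was -0.33. Losses were thus spread over the flank. In the 43 genes whose end carried both classes, the 3' UTR fold was higher in 27 and the downstream fold in 16, with a median difference of 0.14 (3' UTR minus downstream).

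Promoters of the same genes mostly did not change with their ends. Of 120 genes with a gained end peak and a listed promoter peak, the promoter peak with the smallest p was gained in 27 (22.5%) and lost in 3, beside 15% gained and 1.63% lost over 11909 genes. By class, 24.1% of promoters were gained at genes with a gained 3' UTR peak and 18.6% at genes whose 3' UTR peak was not called, and 18.6% at genes with a gained downstream peak and 19.9% at genes whose downstream peak was not called. The promoter rates of gained and uncalled ends were thus close. At Mras, a Ras-family GTPase gene, both moved together: 2 peaks in its 3' UTR had log2 folds of 1.74 (FDR 9.46e-05) and 2.75 (FDR 0.00952) in the authors' deposited table, and its promoter 2.99 (FDR 3.31e-15). At Brd1, Slco2a1 and Prss22 the end was gained (2.67, 0.98 and 1.97) while the promoter was lost (-2.41, -2.69 and -2.84) in the authors' deposited table. The promoter gains of Mras, Fam20a, Got1, Esrrb and Itpk1 stayed gained with the zero of strong peaks, 5 of the 27.

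Genes with a lost end peak had promoters that changed at about the background rate. Of 26 such genes with a promoter peak, 4 promoters were gained (15.4%, beside 15% of all genes), 0 were lost (beside 1.63%) and the rest were not called. The 4 were Cast (end -1.50, promoter 0.56), Npepps (-1.24 and 1.91), Tuba1b (-1.62 and 0.63) and Plekha7 (-1.23 and 0.62), with promoter FDRs of 0.0127, 0.00697, 0.0261 and 0.00221 in the authors' deposited table. None of the 4 promoter gains stayed gained with the zero of strong peaks. The promoters of genes with lost ends were open, with a median log2 concentration of the strongest promoter peak of 6.23 for 3' UTR losses and 6.08 for downstream losses, beside 5.92 and 6.03 for gains.

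Neighbouring peaks within 10 kb changed along with gained 3' UTR peaks at the rate seen elsewhere. Of 96 gained 3' UTR peaks with such a neighbour, 23 neighbours were gained and 0 lost (24%), beside 21.8% gained and 1.34% lost for all gained peaks. Of 36 gained downstream peaks, 5 neighbours were gained and 2 lost. Of 14 lost 3' UTR peaks with a neighbour, 0 neighbours were called, and of 18 lost downstream peaks, 2 neighbours were gained and 0 lost. Over all lost peaks, 8.01% of neighbours were gained and 6.38% lost, so these counts are too small to read.

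Changes were scattered over many genes. The 1991 peaks belonged to 1859 genes, 1732 of them with 1 peak, and 256 genes held a changed peak. In 5 genes, Exoc6b, Fblim1, Hnrnpd, Mras and Sft2d2, 2 peaks of these classes changed, and all 10 of those peaks were gained. Not all lay at the RefSeq end: the 3' UTR peak of Exoc6b was 384988 bases before it, and the second Sft2d2 peak 10552 bases. At Hnrnpd, an RNA-binding protein gene, the 3' UTR peak had 6.56 in knockout cells and 5.92 in control cells in the authors' deposited table (log2 fold 0.64, FDR 0.0249), and the downstream peak 3.20 in knockout cells and 0.71 in control cells (log2 fold 2.49, FDR 0.0396). At Fblim1 the 3' UTR peak had 6.28 in knockout cells and 5.60 in control cells in the authors' deposited table (log2 fold 0.68, FDR 0.0379), beside the downstream peak given above. The largest gain at any gene end was downstream of Exoc6b, an exocyst subunit gene, with 3.81 in knockout cells and 0.56 in control cells in the authors' deposited table (log2 fold 3.25, FDR 0.00169), a peak the table assigns to the retinoic acid hydroxylase gene Cyp26b1. Of these, the peaks of Hnrnpd and Fblim1 did not stay gained with the zero of strong peaks, and the Exoc6b peak did.

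A set of 10 gene groups that bear on the study's question, how lamin A/C loss touches pluripotency and cardiovascular genes, held 217 genes, of which 31 had 32 gene end peaks. Of these 32 peaks, 6 were gained (18.8%), 0 were lost and 26 were not called, with a median log2 fold of 0.56. At all gene ends 10.8% were gained and 2.31% lost, with a median of 0.45. Of the 999 listed peaks of any class assigned to the 217 genes, 128 were gained and 43 lost. Over all listed peaks outside distal chromosome 14, 11.8% were gained and 2.43% lost, and no test of these groups was run. Among naive pluripotency genes, 1 of 7 peaks was gained, at the end of the nuclear receptor gene Esrrb (chr12:86520870-86522358), with 5.40 in knockout cells and 4.33 in control cells in the authors' deposited table (log2 fold 1.08, FDR 0.00969). The promoter of Esrrb was gained too (log2 fold 1.89, FDR 1.05e-12 in the authors' deposited table). None of the 3 peaks at formative and primed pluripotency genes was called, and their folds in the authors' deposited table were -0.42 at Otx2 (FDR 0.174), -0.73 at Sox4 (FDR 0.296) and -1.83 at Etv5 (FDR 0.214). The Otx2 peak was called lost with the zero of strong peaks (log2 fold -0.85, FDR 0.00273) and with the median of all listed peaks (FDR 0.00102).

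Cardiovascular genes held 4 of the 6 gains, on groups of only 4, 3 and 2 peaks, beside a gained share of 10.8% at all gene ends. Of 4 peaks at cardiac transcription factor genes, the peak past Hopx, a homeodomain cofactor of heart development, was gained, with 4.70 in knockout cells and 3.10 in control cells in the authors' deposited table (log2 fold 1.61, FDR 0.0104). Of 3 at cardiac structure and calcium genes, the peak at the end of Atp2a2, the SERCA2 calcium pump gene, was gained, with 6.36 in knockout cells and 5.24 in control cells in the authors' deposited table (log2 fold 1.11, FDR 0.000159). Both peaks of the endothelial and smooth muscle group, Vwf and Myh11, were gained and were described above. With the zero of strong peaks, Vwf and Myh11 stayed gained, and Hopx (FDR 0.0946), Atp2a2 (FDR 0.0502) and Esrrb (FDR 0.188) did not.

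Nuclear envelope genes had 6 gene end peaks, of which 1 was gained, past Banf1, whose product tethers DNA to the envelope, with 5.56 in knockout cells and 4.50 in control cells in the authors' deposited table (log2 fold 1.07, FDR 0.00723, not kept with the zero of strong peaks). The 3' UTR peak of Lmnb1, the gene of lamin B1, was not called, with 6.12 in knockout cells and 6.33 in control cells in the authors' deposited table (log2 fold -0.20, FDR 0.619). It was called lost with the median of all listed peaks (FDR 0.0449) and not with the zero of strong peaks (FDR 0.0743). Of 3 peaks at chromatin and heterochromatin genes, 3 at neuronal genes and 1 at a gene of mRNA 3' end processing, none was called with the deposited folds. Of these, the 3' UTR peak at Mapt, the neuronal tau gene, was called lost with both other zeros (FDR 0.0166 and 0.0224). The peak of the 3' end processing group was in Sympk, a scaffold of the cleavage and polyadenylation machinery, with 2.84 in knockout cells and 3.56 in control cells in the authors' deposited table (log2 fold -0.73, FDR 0.434).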

How the data were processed

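Only peaks in a table of the authors' own comparison were used, and 0 columns of per-sample values. The genome build was mm10, and ChIPseeker, DESeq2, DiffBind, MACS2, Bowtie2, Trimmomatic 0.39, Picard 1.119, bedtools 2.28.0, SAMtools and deepTools were used, per the submitters' processing notes. Not given in the sources used here were their settings, the Tn5 shift, the normalization and the model. The log2 concentrations and log2 folds are as deposited by the authors, and the fold equals knockout minus control within 0.01. The p-value and FDR are also the authors' deposited values. From p, rank and FDR, 99078 peaks were tested, and 33543 with p above 0.422 are not analysed here.

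The planned fallback for a table without values per library was followed, so replicate spread and depth are unknown and no test between libraries was run. The retest subtracted a new zero from each fold, kept the standard error implied by the deposited p, held unlisted peaks at a p of 1 and adjusted over all tested peaks with the Benjamini-Hochberg method. It was tested on simulated data. Peaks were laid over RefSeq genes of GRCm38.p6 and named by the gene whose end they lie at, otherwise by the assigned gene. The rule for named peaks took, per class and among called peaks at or above the median concentration of 4.01, the 8 gained and 8 lost with the smallest FDR (predicted genes left out), then the 5 strongest, genes with changed peaks of both classes, the leading peaks of each list and Lmna. The transcript starts, Mras, Sdr16c6, Tnpo3, Cdc26, Ccdc190, Timmdc1, Phactr2 and the genes whose promoter moved were named after their values were seen. The members, lists and rules were chosen with earlier results of these data known. Tables were handled in pandas 2.3.3 and numpy 2.4.6 under Python 3.11.15, intervals came from SciPy 1.17.1 and plots from matplotlib 3.10.9.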

Additional observations from a re-analysis of the deposited data

How the results depend on the processing

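No paired analysis was possible because only group means were used, with no values per library, and for the same reason leaving out each library, edgeR and DESeq2 were not run. Of 62 results under 9 alternatives, 42 kept their direction and stayed inside the 95% interval of the main value (for counts, within 1.5 times of it), 14 moved further and 6 turned. The gained share of changed gene end peaks was 90.7% at an FDR of 0.01 and 89.6% in peaks at or above the median concentration, in 3' UTRs 92.9% and 93.3%, and downstream 86.8% and 82.5%. Retested around the median of all listed peaks, the gained share turned to a minority of 12.7% (3' UTR 15.9%, downstream 8.4%), with 35 gained and 241 lost. Around the median of strong peaks it was 18.4% (22.7% and 12.6%), with 41 gained and 182 lost. Both of these medians leave out the tested peaks that are not listed, and a zero from all tested peaks was not tested. At an FDR of 0.01, 98 peaks were gained and 10 lost, 19 were lost at or above the median concentration, and 30 were lost with downstream peaks within 1 kb only. The 3' UTR share stayed above the downstream share in every alternative, by 6.02 points (95% interval -5.27 to 20.8) at an FDR of 0.01 up to 20.3. The interval also spanned 0 in both retests (7.52 points, -0.521 to 15.1, and 10 points, -0.342 to 19.6). The cause was not tested. The alternative with peaks at a RefSeq gene end only was chosen after seeing the data. With unknown depth, peaks not called cannot be read as unchanged, and weak peaks were called less often.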

Other observations

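Genes of nuclear transport receptors, a group picked after the values were seen, held 3 of the 46 lost gene end peaks. These proteins carry cargo through nuclear pores. In the 3' UTR of Tnpo3, a transportin gene, the log2 concentration was 2.63 in knockout cells and 4.51 in control cells in the authors' deposited table (log2 fold -1.88, FDR 0.00337). This peak lay 58689 bases before the RefSeq end of the gene. Past Kpnb1, the importin beta gene, it was 1.20 in knockout cells and 3.56 in control cells in the authors' deposited table (log2 fold -2.36, FDR 0.0202), and a second peak there was not called (log2 fold -2.41, FDR 0.0724). The third was the Kpna2 peak, and the peak past Ipo8 was not called in the authors' deposited table (log2 fold 0.34, FDR 0.523). The called Kpnb1 peak is assigned to Tbkbp1 in the table. That peak is therefore not among the 81 listed peaks of any class assigned to the 24 receptor genes. Of those 81, 7 were gained and 3 lost, with a median log2 fold of 0.46. Over all listed peaks outside distal chromosome 14, 11.8% were gained and 2.43% lost. No test was run, since the group was chosen on these values.

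On distal chromosome 14, left out above, 32 of 40 3' UTR peaks and 9 of 14 downstream peaks were gained and 0 were lost, with median log2 folds of 1.73 and 1.71. At gene ends outside that stretch, 10.8% were gained and 2.31% lost. The share over all listed peaks of the stretch was not counted, so these counts do not set its gene ends apart from its other peaks. The gene with the most end peaks outside that stretch, D1Ertd622e, had 4.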
